A study of Mus musculus with 6 samples.

Results

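A set of 10 genes that control the formation of blood and of the common precursor of blood and endothelium was followed in VEC-null and VEC-positive endothelial cells. They are *Lmo2*, *Ldb1*, *Tal1*, *Lyl1*, *Tcf3*, *Gata2*, *Runx1*, *Cbfb*, *Kit* and *Itga2b*. These 10 genes were taken by symbol from the 24080 genes of the normalized count table. All 10 passed the filter on low values, for which 3 or more of the 6 libraries must reach a normalized count of 10, and each also passed it in the libraries of either group alone. By adjusted p in limma, 3 of them (*Lmo2*, *Runx1* and *Itga2b*) were higher in VEC-positive cells, 3 (*Kit*, *Lyl1* and *Cbfb*) were lower and 4 (*Ldb1*, *Tal1*, *Tcf3* and *Gata2*) did not pass.

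The cells were cultured endothelial cells made from mouse embryonic stem cells in which both copies of the gene for VE-cadherin (VEC, *Cdh5*) carry a null mutation. VEC-null cells are that line, and VEC-positive cells are the same line after retroviral transfer of wild-type VEC, so both groups share the null alleles and the comparison is between 1 line and its 1 reconstituted derivative. Total RNA was sequenced in 3 libraries of each group after a stranded library preparation. The study calls the replicates biological, but neither it nor the labels name separate cultures, so the p-values measure the spread between these libraries.

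The products of these genes work together. LMO2 is an adaptor without DNA binding of its own. It joins the basic helix-loop-helix factors TAL1 or LYL1, which pair with an E protein such as TCF3, to a GATA factor, and LDB1 holds the assembly together and links distant enhancers to promoters. RUNX1 with its partner CBFB forms core binding factor, which is needed for blood cells to emerge from hemogenic endothelium. KIT is the receptor for stem cell factor and ITGA2B (CD41) is an integrin subunit of platelets and early blood progenitors. TAL1, LYL1, LMO2, GATA2 and RUNX1, with the ETS factors ERG and FLI1, bind shared enhancers in blood stem and progenitor cells, and most of them are also present in endothelium.

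Whole reads recovered from the table numbered 6036155 to 11670273 in the VEC-null and 9598590 to 14136376 in the VEC-positive libraries, and mitochondrial genes took 9.62 to 14.9% and 17.97 to 24.18% of them. VEC-null 3 stood apart within its group, with a chi-square per gene of 45.06 against VEC-null 1 and 43.78 against VEC-null 2, where those 2 libraries gave 6.06 with each other. RNA of *Cdh5* itself was higher in the libraries labelled VEC-null. Its normalized count was 1334, 1439 and 1689 in the VEC-null and 794, 739 and 749.7 in the VEC-positive libraries, a log2 fold change of -0.96 (adjusted p = 0.0001821). Which part of the transcript the null alleles still make was not analysed here, so this gene does not check the labels, and VEC-null and VEC-positive stand throughout for the libraries labelled so.

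The first question was how the genes of the LMO2 complex differed with VEC, beginning with the LIM-domain proteins. The normalized count of *Lmo2* (ENSMUSG00000032698, mm10 chr2:103957986-103981878, plus strand) was 489.6, 405 and 447 in the VEC-null libraries, listed here and below by replicate number, and 1224, 1314 and 1316 in the VEC-positive libraries. All VEC-positive libraries lay far above all VEC-null libraries. The mean rose from 447 ± 42.4 to 1285 ± 52.9 (SD, n = 3 each), 2.87-fold, with a log2 fold change of 1.52 (SE 0.0905, 95% interval 1.31 to 1.73, adjusted p = 1.207e-05). *Lmo2* was among the genes that the study selected from these same libraries, so its direction here is not independent evidence. The study also measured *Lmo2* by quantitative PCR, listing it with the genes induced by VEC.

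*Ldb1* (ENSMUSG00000025223, mm10 chr19:46031570-46045214, minus strand), which encodes the protein that LMO2 binds, had counts of 932, 992 and 747 in the VEC-null and 965, 982 and 968 in the VEC-positive libraries. The groups overlapped, since the VEC-positive values all fell between those of VEC-null 1 and VEC-null 2, and VEC-null 3 was the lowest. The log2 fold change of 0.14 (95% interval -0.12 to 0.39, adjusted p = 0.3647) did not pass, and its sign turned when the libraries were scaled to equal totals (-0.17) or to equal totals of nuclear genes (-0.01). *Ldb1* shares 177 exon bases with *Pprc1*, which rose (log2 fold change 0.50, adjusted p = 0.01064), and no source used here says whether the counting took strand into account. The other genes of this part of the complex moved in different directions. *Ldb2*, the paralog of *Ldb1*, fell from 1125 ± 21.6 to 467 ± 41.1 (log2 fold change -1.27, adjusted p = 2.37e-05). Of the single-stranded DNA-binding proteins that stabilise LDB1, *Ssbp3* fell (-0.58, adjusted p = 0.01544, but 0.06281 without VEC-positive 3), *Ssbp4* rose by a small amount (0.36, adjusted p = 0.03019) and *Ssbp2* did not pass (0.66, adjusted p = 0.1172). The LIM-only paralogs *Lmo1* and *Lmo4* did not pass either, the latter with a log2 fold change of -0.15, and *Lmo3* was below the filter.

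**Figure D1:**
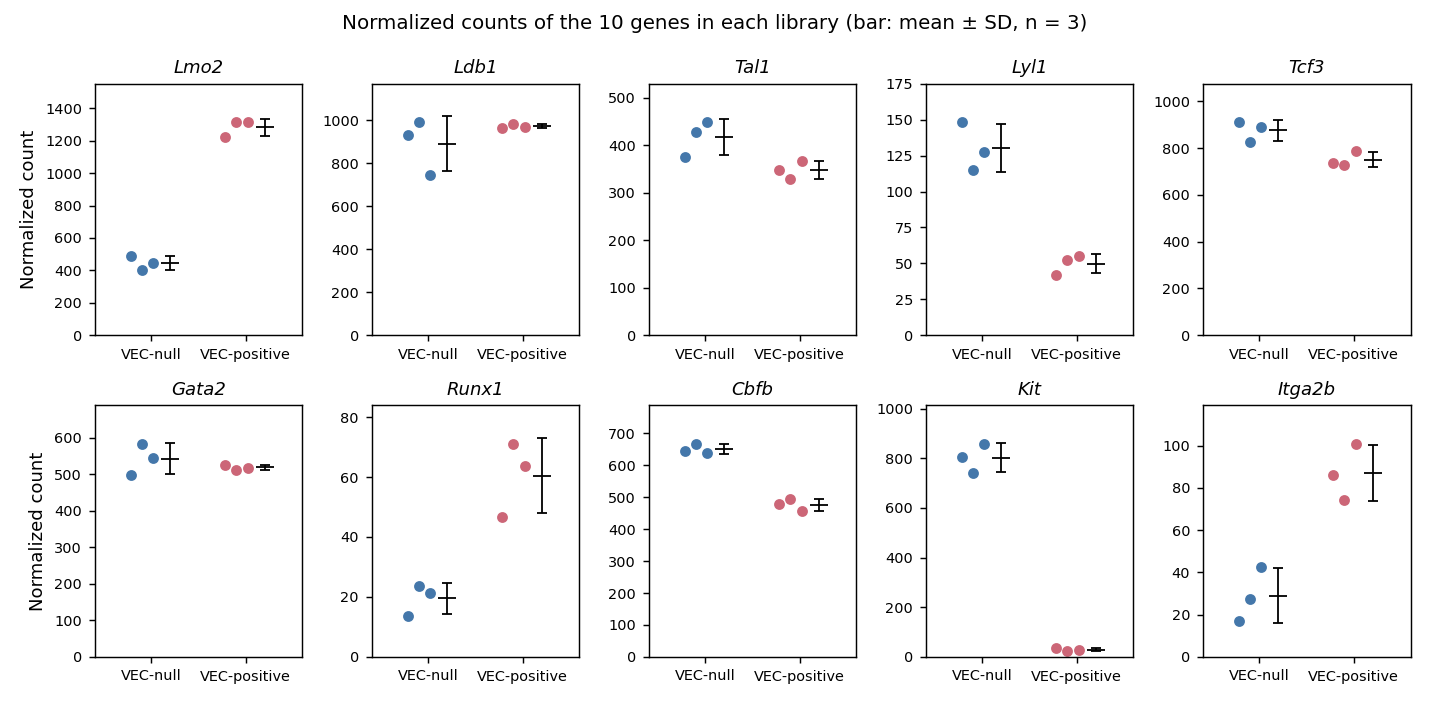
Normalized count of each of the 10 genes by group, on axes from 0, with 1 point per library and a bar at the mean ± SD of the 3 libraries of a group. *Lmo2*, *Runx1* and *Itga2b* are higher in every VEC-positive library, *Kit*, *Lyl1* and *Cbfb* are lower in every one, and the groups overlap for *Ldb1* and *Gata2*.

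Among the helix-loop-helix factors, *Lyl1* fell while its paralog *Tal1* did not pass. *Lyl1* (ENSMUSG00000034041, mm10 chr8:84701457-84704715, plus strand) had counts of 148, 115 and 128 in the VEC-null and 42.0, 52.6 and 54.9 in the VEC-positive libraries, so that every VEC-positive library lay under every VEC-null one. Its mean went from 130.4 ± 16.9 to 49.8 ± 6.88, 2.62-fold lower, with a log2 fold change of -1.37 (SE 0.1776, 95% interval -1.78 to -0.96, adjusted p = 0.0006232). *Nfix*, which lies on the opposite strand and shares 4 exon bases with *Lyl1*, moved the other way, from 301 ± 17.8 to 654 ± 52.5. *Tal1* (ENSMUSG00000028717, mm10 chr4:115056426-115071755, plus strand) had 375, 427 and 449 against 348, 328 and 366. These groups did not overlap, but the gap between the lowest VEC-null and the highest VEC-positive library was small and the log2 fold change of -0.26 (95% interval -0.49 to -0.03, adjusted p = 0.07601) did not pass. It passed as lower in 3 of 17 alternatives, namely with equal totals, with equal totals of nuclear genes and without VEC-null 1, where adjusted p was 0.03999. *Stil*, the gene 13230 bases from *Tal1*, fell from 287 ± 26.1 to 127 ± 18.5 (log2 fold change -1.18, adjusted p = 0.0003837).

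The balance between the paralogs can be read within each library, where scaling enters only through the pseudocount of 1 added to each count. The log2 ratio of *Tal1* to *Lyl1* was 1.33, 1.88 and 1.81 in the VEC-null and 3.02, 2.62 and 2.72 in the VEC-positive libraries. Its mean rose from 1.67 ± 0.30 to 2.79 ± 0.21, a difference of 1.11. The groups did not overlap, and the exact two-sided permutation test gave p = 0.1, the smallest value that 3 against 3 libraries allow. Per kilobase of exon, *Lyl1* made up 49.06, 39.59 and 40.91% of the summed level of both genes in the VEC-null and 22.71, 28.05 and 26.71% in the VEC-positive libraries.

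*Tcf3* (ENSMUSG00000020167, mm10 chr10:80409514-80433647, minus strand), the gene of the E proteins E12 and E47, had counts of 912, 828 and 889 in the VEC-null and 737, 728 and 788 in the VEC-positive libraries. The groups did not overlap, yet the log2 fold change was only -0.22 (95% interval -0.40 to -0.05, adjusted p = 0.0524) and missed the threshold. It passed as lower in 6 of 17 alternatives, among them edgeR and leaving out VEC-null 3. The E protein gene with the highest count was *Tcf4*, which fell from 5702 ± 364 to 3882 ± 245 (log2 fold change -0.55, adjusted p = 0.001366), whereas *Tcf12* did not pass (0.08, adjusted p = 0.5732). Measured per kilobase of exon, the share of *Tcf3* in the 3 E protein genes was 39.24, 37.26 and 37.72% in the VEC-null and 37.84, 38.79 and 39.61% in the VEC-positive libraries, with overlapping groups. Annotated exons cover 27382 bases in *Tcf4*, 15529 in *Tcf12* and 4039 in *Tcf3*, so the size of this share depends on the annotation. The ID proteins, which bind E proteins and keep them from DNA, split in direction. *Id3* fell from 133 ± 13.4 to 47.0 ± 7.98 (log2 fold change -1.48, adjusted p = 0.0004403), *Id1* rose from 33.7 ± 4.62 to 67.3 ± 8.85 (0.98, adjusted p = 0.006814) and *Id2* rose from 49.8 ± 13.1 to 90.9 ± 7.57 (0.89, adjusted p = 0.01511). The call of *Id2* was lost without VEC-positive 1 (adjusted p = 0.05155), without VEC-positive 2 (0.06538) and with equal totals (0.05689).

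*Gata2* (ENSMUSG00000015053, mm10 chr6:88193891-88207032, plus strand), the GATA factor of blood stem cells and of endothelium, had counts of 499, 584 and 545 in the VEC-null and 526, 512 and 518 in the VEC-positive libraries. The VEC-positive values lay inside the VEC-null range, and the log2 fold change was -0.06 (95% interval -0.26 to 0.14, adjusted p = 0.6033). Only scaling to equal totals brought it past the threshold, as lower (-0.37, adjusted p = 0.0106). *Gata1*, the erythroid and megakaryocytic member of the family, reached at most 1.53 in any library and was below the filter. *Gata4* rose from 57.7 ± 9.26 to 93.5 ± 7.18 (log2 fold change 0.70, adjusted p = 0.01546), a call that was lost in 5 of 17 alternatives, 3 of which left out 1 library (VEC-null 2, adjusted p = 0.0534, VEC-positive 1, 0.05405, or VEC-positive 2, 0.07043). *Gata6* was at 0 in all VEC-null libraries and at 9.33, 4.87 and 12.9 in the VEC-positive ones, below the filter. The GATA cofactor *Zfpm2* rose from 241 ± 26.5 to 388 ± 27.6 (0.69, adjusted p = 0.002079). *Cbfa2t3*, the corepressor ETO2 of the TAL1 complex, rose from 388 ± 45.8 to 533 ± 8.25 (log2 fold change 0.46, adjusted p = 0.008486), a call that was lost with equal totals (0.15, adjusted p = 0.2603).

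For the LMO2 adaptor and its binding partner the within-library log2 ratio of *Lmo2* to *Ldb1* was -0.93, -1.29 and -0.74 in the VEC-null libraries. It was 0.34, 0.42 and 0.44 in the VEC-positive libraries, so that *Lmo2* had the lower count of the pair in each VEC-null library and the higher in each VEC-positive one. Per kilobase of exon the pair overlapped in the VEC-null libraries, at 187 to 226 for *Lmo2* and 162 to 215 for *Ldb1*, so the order of their counts there is not an order of levels. The difference of the means was 1.39, from -0.99 ± 0.28 to 0.40 ± 0.05 (exact permutation p = 0.1, again the smallest possible).

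The next question concerned core binding factor, whose subunits moved in opposite directions. *Runx1* (ENSMUSG00000022952, mm10 chr16:92601466-92826149, minus strand), the DNA-binding subunit, had counts of 13.8, 23.6 and 21.3 in the VEC-null and 46.7, 71.1 and 63.8 in the VEC-positive libraries, all low values but without overlap. They rest on 63 and 192 reads in all. The mean rose from 19.6 ± 5.15 to 60.5 ± 12.5, 3.09-fold, with a log2 fold change of 1.59 (SE 0.2842, 95% interval 0.94 to 2.25, adjusted p = 0.00316). The antisense gene *Gm26626* shares 106 exon bases with it and stood at no more than 1.53 in any library. *Cbfb* (ENSMUSG00000031885, mm10 chr8:105170674-105217989, plus strand), which stabilises RUNX proteins on DNA, had 644, 668 and 639 against 479, 494 and 457. It fell in every VEC-positive library, from a mean of 650.4 ± 15.3 to 477 ± 18.7, by 0.45 on the log2 scale (SE 0.0754, 95% interval -0.62 to -0.27, adjusted p = 0.002359). Within a library the log2 ratio of *Runx1* to *Cbfb* went from -5.02 ± 0.37 to -2.98 ± 0.31, a difference of 2.04 without overlap (exact permutation p = 0.1). Even so, *Cbfb* had the higher count in each of the 6 libraries. Of the other genes of RUNX proteins, *Runx2* rose from 5.4 ± 4.43 to 19.7 ± 5.68 (log2 fold change 1.91, adjusted p = 0.03132) and *Runx3* fell from 16.2 ± 2.57 to 7.57 ± 1.1 (-1.0, adjusted p = 0.04412). Both are counts near the filter, and each call was lost in 6 of the alternatives, among them the omission of any 1 VEC-positive library (adjusted p up to 0.1191 for *Runx2* and 0.1344 for *Runx3*). *Runx2* passed the filter only through the VEC-positive libraries and *Runx3* only through the VEC-null libraries, the group where each was high.

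*Runx1* is transcribed from a distal and a proximal promoter, which differ in sequence. They are shown because the gene-level count cannot tell which of them the rise came from, and the sequence 5′ of *Cbfb* is shown for comparison with its partner. All come from the RefSeq promoter table for GRCm38.p6, cut where the first annotated exon begins, and capitals mark an E-box (CANNTG, bound by helix-loop-helix factors) or an ETS motif (GGAAG or CTTCC), both strands searched. GGAA before any other letter was not searched, and the proximal *Runx1* and the *Lyl1* stretches hold it unmarked.
Runx1 distal, chr16:92826150-92826324, minus strand: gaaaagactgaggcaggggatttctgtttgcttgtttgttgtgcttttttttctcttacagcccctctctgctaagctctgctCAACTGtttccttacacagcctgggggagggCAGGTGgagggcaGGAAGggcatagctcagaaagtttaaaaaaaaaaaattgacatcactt
Runx1 proximal, chr16:92697330-92697579, minus strand: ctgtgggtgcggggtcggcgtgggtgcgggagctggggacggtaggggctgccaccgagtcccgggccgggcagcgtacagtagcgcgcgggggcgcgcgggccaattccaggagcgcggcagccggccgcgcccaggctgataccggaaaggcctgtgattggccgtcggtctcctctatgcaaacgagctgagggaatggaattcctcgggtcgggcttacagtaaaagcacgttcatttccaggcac
Cbfb, chr8:105170424-105170673, plus strand: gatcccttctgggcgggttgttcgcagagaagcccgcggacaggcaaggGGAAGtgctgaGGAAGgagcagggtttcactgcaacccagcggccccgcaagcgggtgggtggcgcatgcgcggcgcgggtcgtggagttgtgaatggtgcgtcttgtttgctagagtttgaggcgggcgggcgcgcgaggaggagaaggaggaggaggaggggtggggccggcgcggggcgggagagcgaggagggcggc
The distal *Runx1* stretch of 175 bases held no CpG, 2 E-boxes and 1 ETS motif. The proximal stretch of 250 bases held 27 CpG and none of the motifs searched, and the *Cbfb* stretch held 25 CpG and 2 ETS motifs.

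The largest difference among the 10 genes was in *Kit* (ENSMUSG00000005672, mm10 chr5:75574916-75656722, plus strand). Its normalized count was 806, 741 and 858 in the VEC-null and 35.0, 25.3 and 28.2 in the VEC-positive libraries, 2436 against 91 reads in all. The lowest VEC-null library was thus more than an order of magnitude above the highest VEC-positive one. The mean went from 802 ± 58.7 to 29.5 ± 4.96, 27.2-fold lower, with a log2 fold change of -4.73 (SE 0.1472, 95% interval -5.07 to -4.39, adjusted p = 5.952e-07). In bulk RNA, fewer cells with *Kit* and less *Kit* RNA per cell cannot be told apart, and the same holds for each gene here. *Kitl*, the gene of its ligand, moved the other way. It had counts of 2492, 2421 and 3090 in the VEC-null and 4144, 4252 and 4278 in the VEC-positive libraries, so that the groups did not overlap and the mean rose from 2668 ± 367 to 4225 ± 70.9 (log2 fold change 0.67, adjusted p = 0.001323).

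*Kit* lies between the genes of 2 other receptor tyrosine kinases, and neither passed as lower. *Kdr*, the VEGF receptor 276105 bases away, had counts of 12920.0, 12302 and 12659 in the VEC-null and 19433, 18149 and 18860 in the VEC-positive libraries and rose by a log2 fold change of 0.57 (adjusted p = 0.001016). *Pdgfra*, a PDGF receptor 376701 bases to the other side, had 36.7, 31.5 and 51.4 against 57.2, 57.5 and 52.5, a log2 fold change of 0.50 that did not pass (adjusted p = 0.1234). It passed as higher only without VEC-null 3 (adjusted p = 0.02164). The plot of *Kit* with its neighbours and ligand shows that *Kit* alone of the 4 genes was lower in the VEC-positive libraries. *Flt3*, another receptor of this kinase class on chromosome 5 and far from this cluster, rose from 6.85 ± 3.61 to 26.6 ± 6.49 (log2 fold change 1.89, adjusted p = 0.009354), a low count whose call was lost without VEC-positive 3 (adjusted p = 0.05141). In the VEC-null libraries its counts were 10.7, 6.3 and 3.55, so it passed the filter only through the VEC-positive libraries.

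**Figure D2:**
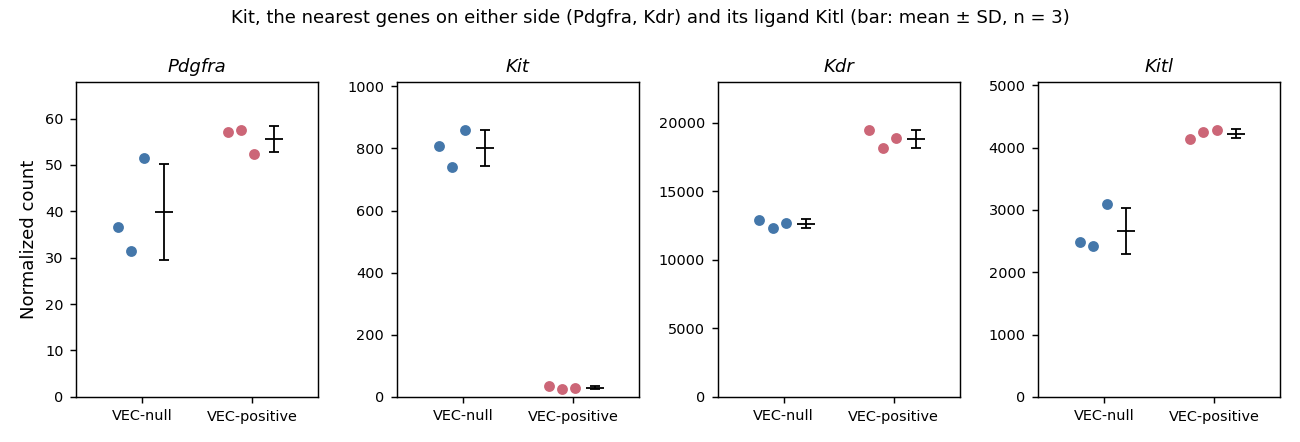
Normalized count by group of *Kit*, of its nearest protein-coding genes on either side, *Pdgfra* and *Kdr*, and of *Kitl*, on axes from 0, with 1 point per library and a bar at the mean ± SD (n = 3). The VEC-positive libraries lie between 25.3 and 35.0 for *Kit*, under all VEC-null libraries, and above them for the other genes plotted.

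The sequences 5′ of *Kit* and *Lyl1*, the genes with the largest falls, are given from the same table with the same marks.
Kit, chr5:75574737-75574915, plus strand: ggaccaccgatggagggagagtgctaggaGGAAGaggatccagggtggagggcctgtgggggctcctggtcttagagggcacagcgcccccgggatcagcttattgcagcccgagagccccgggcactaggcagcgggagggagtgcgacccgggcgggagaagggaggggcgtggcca
Lyl1, chr8:84701207-84701456, plus strand: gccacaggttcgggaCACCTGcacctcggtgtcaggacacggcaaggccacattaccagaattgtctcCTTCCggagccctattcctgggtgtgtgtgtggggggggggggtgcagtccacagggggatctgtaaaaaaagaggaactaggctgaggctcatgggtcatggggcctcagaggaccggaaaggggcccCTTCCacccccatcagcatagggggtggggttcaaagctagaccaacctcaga
The *Kit* stretch of 179 bases held 10 CpG and 1 ETS motif, and that of *Lyl1*, 250 bases long, held 5 CpG, 1 E-box and 2 ETS motifs. Of the 10 genes, 9 had entries in the table, 15 in all, and *Lmo2* had none. At least 2 entries each came from 5 genes, so the windows are not all separate. The *Kit* windows, from bases 75574737 and 75574741, share nearly all their sequence, and the same ETS motif counts in each. The counts that follow use the full 250 bases of each window, without the cut at the first annotated exon, so some include exon bases. Of these 15 windows, 5 had an E-box and 10 an ETS motif, where 66.22% and 64.07% of all 32851 windows in the table had one. A GATA motif (AGATAA) was in 2 of the 15 and in 9.99% of all, and a RUNX motif (TGTGGT) in 0 of the 15 and in 14.05% of all. A FoxO motif (GTAAACA) and a TCF motif (CTTTGAT) were each in 0 of the 15, against 3.17% and 3.21% of all. These matches describe letters in a window and no measured binding.

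*Itga2b* (ENSMUSG00000034664, mm10 chr11:102453297-102470122, minus strand) had counts of 16.8, 27.6 and 42.6 in the VEC-null and 86.3, 74.0 and 101 in the VEC-positive libraries. The VEC-null libraries were widely spread, with VEC-null 3 the highest, yet all VEC-positive libraries were above them. The mean rose from 29.0 ± 12.9 to 87.1 ± 13.4, 3.0-fold, with a log2 fold change of 1.64 (SE 0.3266, 95% interval 0.88 to 2.39, adjusted p = 0.005443). Its partner in the platelet integrin, *Itgb3*, had much higher counts that did not follow it, 1291 ± 194 in VEC-null and 1097 ± 36.8 in VEC-positive libraries (log2 fold change -0.23, adjusted p = 0.1452). The groups did not overlap for *Itgb3*, which passed as lower with equal totals (adjusted p = 0.004424) and with equal totals of nuclear genes (0.04078). The neighbours of *Itga2b*, *Fam171a2*, 5615 bases away, and *Gpatch8*, 5793 bases away, did not pass, with log2 fold changes of 0.08 and -0.23.

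Set against all tested genes, the share of the 10 that passed was high but drawn from a comparison in which many genes passed. The threshold was passed by 6 of the 10 and by 37.3% of the 14032 tested genes. The share was not particular to the 10, since 60.9% of the tested partners and 61.5% of the tested blood factors described below passed. As higher, 3 of the 10 passed beside 20.9% of all, and as lower, 3 of the 10 beside 16.4% of all. A change of at least 2-fold was called for 5 of the 10 (*Lmo2*, *Runx1*, *Itga2b*, *Lyl1* and *Kit*) and for 13.9% of all. The groups did not overlap for 8 of the 10 and for 50% of all. The median log2 fold change of the 10 was -0.14 and that of all tested genes -0.01. With libraries scaled to equal totals, which moved the median of all genes to -0.32, the 10 had 3 higher and 6 lower calls, beside 11.2% and 35.3% of all genes, and their median was -0.45. The same 3 genes were higher and *Kit*, *Lyl1* and *Cbfb* lower in each of the alternatives in which they could be tested, and the plot of alternatives shows their ranges, from 1.21 to 1.59 for *Lmo2* and from -5.03 to -4.55 for *Kit*.

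**Figure D3:**
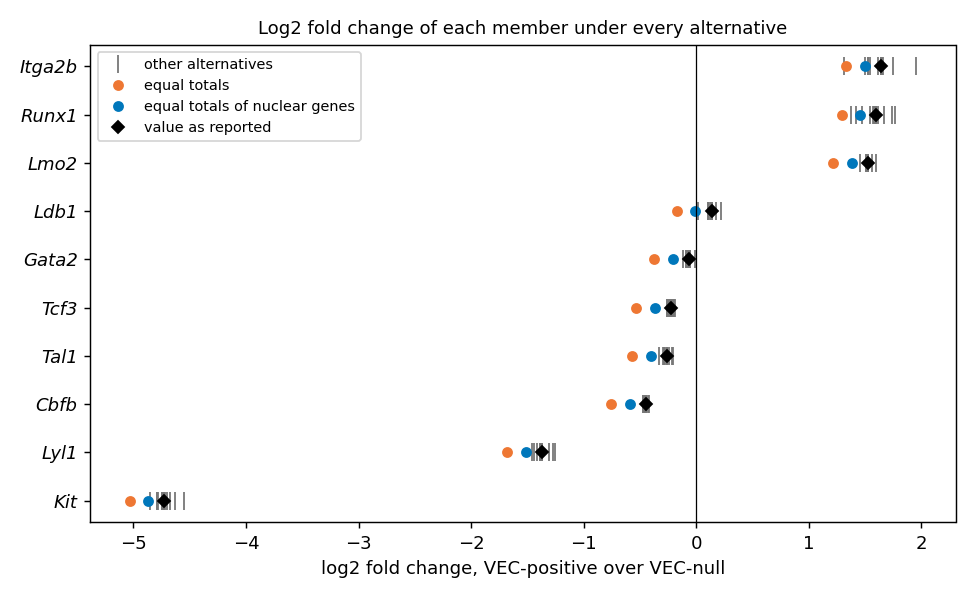
Log2 fold change of each of the 10 genes, VEC-positive minus VEC-null, as reported (black) and in each alternative (grey lines, with the scalings to equal totals in orange and blue). *Lmo2*, *Runx1* and *Itga2b* stay right of 0 and *Kit*, *Lyl1* and *Cbfb* left of it in every alternative, while *Ldb1* lies on both sides.

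Expressed per kilobase of exon, levels can be compared between genes only roughly. The length used takes in every annotated exon of a gene, so it can exceed that of the transcripts made. The order of genes therefore depends in part on the annotation. In VEC-null cells the order of mean levels was *Tcf3* (217.0), *Lmo2* (206), *Ldb1* (193), *Cbfb* (187), *Gata2* (101), *Tal1* (95.2), *Kit* (90.0), *Lyl1* (72.4), *Itga2b* (5.31) and *Runx1* (1.63), in normalized counts per kilobase. Neighbours among the first 4 overlapped in their libraries, as did *Gata2* with *Tal1* and *Tal1* with *Kit*. In VEC-positive cells the order was *Lmo2* (593), *Ldb1* (211), *Tcf3* (186), *Cbfb* (137), *Gata2* (96.1), *Tal1* (79.3), *Lyl1* (27.7), *Itga2b* (16.0), *Runx1* (5.03) and *Kit* (3.31), and only *Runx1* and *Kit* overlapped. *Kit* thus went from rank 7 to rank 10 and *Lmo2* from rank 2 to rank 1. *Runx1* and *Itga2b* stayed among the lowest levels in both groups despite their higher counts in VEC-positive cells.

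The wider circle of these genes was described by a list of 28 partners (paralogs, cofactors, inhibitors, the ligand of KIT and the partner of ITGA2B). Of them 5 were below the filter (*Lmo3*, *Tal2*, *Gata1*, *Gata5* and *Gata6*) and 23 were tested. Among these, 9 rose, 5 fell and 9 did not pass, with 4 changes of at least 2-fold and a median log2 fold change of 0.08. In the libraries of each group alone, 18 partners passed the filter. Of all tested genes, 20.9% were higher, 16.4% lower and 13.9% called at 2-fold or more. With equal totals, 4 partners were higher and 6 lower and their median was -0.21. The list therefore moved in both directions, as the 10 genes did. The calls of *Ssbp4* and *Zfpm1* were small and fragile. *Zfpm1*, a GATA cofactor, rose from 568 ± 14.4 to 686 ± 22.5 (log2 fold change 0.27, adjusted p = 0.02033). Of 17 alternatives, the call of *Ssbp4* was lost in 10 and that of *Zfpm1* in 8 with the same sign. The call of *Zfpm1* was also lost in 1 more, equal totals, where its log2 fold change turned to -0.04 (adjusted p = 0.6817). Only 4 partners were higher without VEC-positive 1 or without VEC-positive 2, 5 with the replicate number as a block, and 3 were lower without VEC-positive 3.

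**Figure D4:**
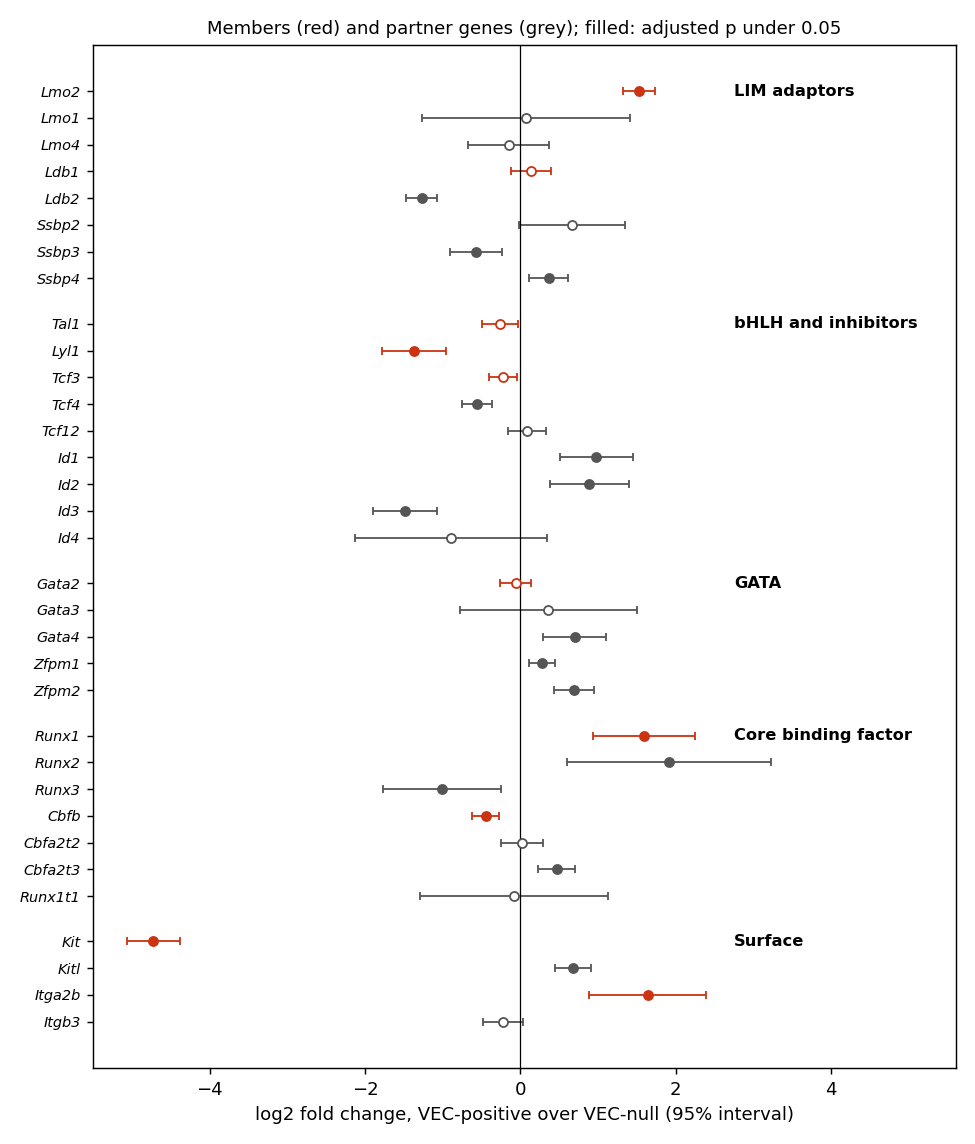
Log2 fold change, VEC-positive minus VEC-null, of the 10 genes (red) and of the 23 tested partners (grey), grouped by role, with bars for the 95% interval and filled points where adjusted p was under 0.05. The groups of LIM, helix-loop-helix, core binding factor and surface genes each hold filled points on both sides of 0, and *Kit* at -4.73 lies farthest from it.

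A list of 26 other factors and receptors of blood formation was described in the same way. Of these, 7 (among them *Etv2*, *Gfi1b*, *Ikzf1* and *Sox17*) were not analysed here, 6 (*Spi1*, *Gfi1*, *Myb*, *Cebpa*, *Hoxa9* and *Klf1*) were below the filter and 13 were tested. *Spi1*, the myeloid master regulator PU.1, and *Klf1*, the erythroid one, reached at most 2.36 and 3.15 in any library. Of the 13, 7 rose, 1 fell and 5 did not pass, with a median log2 fold change of 0.35, beside 20.9% higher and 16.4% lower of all tested genes. All but *Flt3*, 1 of those that rose, also passed the filter in the VEC-null libraries alone. With equal totals, 5 were higher and 4 lower and the median was 0.04. *Erg*, an ETS factor of blood stem cells and endothelium, rose from 5372 ± 400 to 8693 ± 530 (0.69, adjusted p = 0.0005433), and *Etv6*, an ETS repressor needed for blood stem cells, from 602 ± 10.2 to 913 ± 27.2 (0.60, adjusted p = 0.0003553). *Fli1*, the other ETS factor that binds with the TAL1 complex, did not pass (-0.14, adjusted p = 0.249). In 3 alternatives *Fli1* passed as lower: equal totals (adjusted p = 0.00591), equal totals of nuclear genes (0.03477) and without VEC-null 3 (0.02228). The surface proteins *Cd34*, *Kdr* and *Eng* rose, but with equal totals the calls of *Cd34* (adjusted p = 0.4256) and *Eng* (0.7349) were lost, as they were with equal totals of nuclear genes (0.06037 and 0.08656), and *Erg*, *Kdr* and *Eng* also belong to the endothelial markers below. The gene that fell was *Ikzf2* (-0.83, adjusted p = 0.02902), a call lost without VEC-null 1, VEC-positive 1 or VEC-positive 2, each of which left 0 lower calls on this list, whereas 3 were lower without VEC-null 3.

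Markers of other cells that use these genes were mostly below the filter or not analysed here. Of 16 erythroid markers 12, the globins and *Alas2* among them, were not analysed here, 1 was tested and did not pass, and the summed normalized count was 29.3 to 39.8 in the VEC-null and 24.5 to 34.7 in the VEC-positive libraries. Of 12 megakaryocyte markers 5 were not analysed here and 2 were tested, with no call, and the summed count was 1157 to 1540.0 in the VEC-null and 1093 to 1156 in the VEC-positive libraries, nearly all of it *Itgb3*. *Pf4*, the platelet chemokine, was at 9.18, 15.0 and 14.2 in the VEC-null and 7.0, 2.92 and 4.84 in the VEC-positive libraries, and the platelet glycoprotein *Gp9* at 0.79 to 1.77 and 2.33 to 3.90, both below the filter. *Gp1bb*, another of these glycoproteins, was at 10.98 ± 3.86 and 18.9 ± 5.12 and did not pass. Of 16 leukocyte markers 6 were tested, 1 rose and 1 fell. *Ncf1*, the one that rose, went from 3.81 ± 3.94 to 18.1 ± 3.09 and *Vav1*, the one that fell, from 31.6 ± 2.85 to 7.30 ± 0.68, and *Laptm5* was at 12.2, 11 and 9.75 in the VEC-null and 1.17, 0 and 0 in the VEC-positive libraries. *Ncf1* passed the filter only through the VEC-positive libraries and *Vav1* only through the VEC-null libraries. The summed count of the leukocyte list was 234 to 562 and 266 to 309, much of it *Itgam*, and its defining gene *Ptprc* reached at most 3.23. Of 9 markers of pluripotent cells 5 were not analysed here and 4 were below the filter, with sums of 3.5 to 10.7 and 1.0 to 13.7.

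Most endothelial markers moved with the label. All 16 were tested, 12 rose, 2 (*Cdh5* and *Robo4*) fell and 2 (*Esam* and *Egfl7*) did not pass, beside 20.9% higher and 16.4% lower of all tested genes. Their summed normalized count was 55339 to 57861 in the VEC-null and 83693 to 85489 in the VEC-positive libraries. The size of the rise depends on scaling, since their median log2 fold change was 0.55 as reported and 0.24 with equal totals. Of the 12 that rose, only *Eng*, *Erg* and *Kdr* were followed with equal totals. There *Eng* lost its call (adjusted p = 0.7349), while *Erg* (0.007999) and *Kdr* (0.04411) kept theirs. How many of the 12 kept a call there is not reported here. The tight junction gene *Cldn5* was near 0 in the VEC-null libraries, at 9.18, 5.51 and 4.43, and at 429, 512 and 434 in the VEC-positive ones, and *Vwf*, the von Willebrand factor gene, rose from 401 ± 13.5 to 1746 ± 80.3 (log2 fold change 2.12, adjusted p = 8.818e-07). *Cldn5* passed the filter only through the VEC-positive libraries. Of 12 mural and fibroblast markers 2 were not analysed here, 5 were tested and 1 rose. That gene, *Pdgfrb*, was at 1.53, 0 and 1.77 in the VEC-null and 95.6, 118 and 102 in the VEC-positive libraries, and the sum of the list was 89.5 to 228.0 and 266.9 to 316.3. It passed the filter only through the VEC-positive libraries. Other mural genes went both ways without a call. Means were lower in VEC-positive libraries for *Acta2* (19.4 and 8.59), *Rgs5* (4.52 and 2.21) and *Tagln* (3.93 and 1.25). They were higher for *Myh11* (10.9 and 21.7) and *Des* (2.55 and 7.10). Of the fibroblast genes, *Dcn* did not exceed 4.67 in any library, *Col1a1* was at 2.66 to 3.15 in the VEC-null and 9.74 to 24.2 in the VEC-positive libraries, below the filter, and *Col1a2* was at 15.1 to 127 and 46.8 to 86.3. The part of the endothelial and mural genes, and of the mitochondrial share, in the differences of the 10 genes was not tested.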

How the data were processed

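RNA of VEC-null and VEC-positive cells was measured in 6 libraries, grouped by their labels. Per the labels, reads were trimmed with Trim Galore and aligned with TopHat2 2.1.1 to mm10, and DESeq2 1.14 was used. The program that counted reads, its annotation and its use of strand are not given in the sources. Signal values deposited by the authors are counts per gene after division by a size factor of each library, and 100% of them were whole reads within 0.01 once multiplied back. Symbols, coordinates and exon lengths came from GENCODE M21, which named 23908 of 24080 genes. The exon length of a gene covers all bases in any of its annotated exons.

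The 14032 genes that reached a normalized count of 10 in 3 or more libraries were compared after adding a pseudocount of 1 and taking log2, a scale that understates changes of low genes. The test was limma 3.58.1 with a mean-variance trend in R 4.3.3. It was two-sided, p-values were adjusted by Benjamini-Hochberg over all 14032 genes, and the threshold was 0.05. Within-library log2 ratios, taken with the same pseudocount, were compared by exact permutation tests in scipy 1.17.1. Folds are ratios of mean normalized counts. The precision of low counts is limited by the reads given beside them. The scripts were tested on simulated data.

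The rule for named genes took all 10 genes, the tested genes of the lists of partners and of blood factors, the counts, sums and defining genes of the marker lists, and genes that overlap or neighbour the 10. Some genes of these lists are not reported here. Other marker and neighbouring genes were named after their values were seen. The genes and lists were chosen with earlier results of these data known. Alternatives were other pseudocounts (0.5 and 5), no filter or one of 50, equal totals of all or of nuclear genes, TMM scaling, no trend, a block for the replicate number, the omission of each library, and count models on the recovered reads with DESeq2 1.42.0 or edgeR 4.0.16. For the ratios, other pseudocounts and the omission of libraries were added after the data were seen. Figures were drawn with matplotlib 3.10.9.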

Additional observations from a re-analysis of the deposited data

How the results depend on the processing

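All 6 calls among the 10 genes kept their direction and their side of the threshold in every alternative that could test them, 17 for each gene and 16 for *Runx1*, which is below the filter of 50. The within-library ratios kept their direction throughout. The difference for *Runx1* over *Cbfb*, 2.04 as reported, was 2.07 with a pseudocount of 0.5 and 1.86 with one of 5. Equal totals gave 6 lower calls among the 10 genes, 4 higher partners, 4 lower blood factors, and 1566 higher and 4960 lower genes in all, against 2927 and 2304 as reported. Equal totals of nuclear genes gave 5 lower calls among the 10 and 3 lower blood factors. *Ldb1* turned to -0.17 and -0.01 under these scalings and *Zfpm1* to -0.038 under the first. Blood factors with lower levels numbered 2 with the filter of 50, with TMM, with edgeR and with DESeq2. Leaving out 1 library gave 4 to 11 higher and 3 to 5 lower partners, 0 to 3 lower blood factors, and 1919 to 3795 higher genes in all, with 1919 without VEC-positive 2 and 1927 without VEC-positive 1.

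The replicate numbers did not pair the libraries, since libraries with the same number had correlations of 0.076, -0.333 and -0.295 of their deviations from the group means. With the replicate number as a block, 5 partners were higher, 2400 genes in all were higher and 1744 lower, and the 10 genes kept 3 higher and 3 lower calls. No library correlated best with the library of its own number in the other group. Low read numbers limit genes such as *Runx2* and *Runx3*.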
